A study of Homo sapiens with 6 samples.

Results

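Genes for 7 surface ligands through which tumour cells meet T cells and macrophages were examined for active and silenced chromatin in H69M and in its parent H69, both small cell lung cancer (SCLC) lines. The genes were CD274, PDCD1LG2, CD276, CD47, PVR, NECTIN2 and ICAM1. All peaks that touched a gene's hg19 span with 5 kb added on each side were taken, which gave 26 of the 148837 peaks on chromosomes 1 to 22 and X. H3K27ac accounted for 12 of them in H69M and 10 in H69, and H3K27me3 for 1 in H69M and 3 in H69.

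The samples were H69M, a derivative of NCI-H69 known from earlier work as mesenchymal-like, and NCI-H69 itself, an established SCLC line called H69 here. The labels give no agent or engineered allele for either line and do not say whether H69M is a clone. Each line gave 1 chromatin immunoprecipitation sequencing (ChIP-seq) library for H3K27ac, 1 for H3K27me3 and 1 input, of which the inputs were not used here. No group had replicates, so no spread between cultures can be set beside a difference and no p-value is given.

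H3K27ac, acetylation of lysine 27 on histone H3, marks active promoters and enhancers. H3K27me3, trimethylation of the same residue, is deposited by the Polycomb complex PRC2 at silenced genes. CD274 (PD-L1) and PDCD1LG2 (PD-L2) bind the inhibitory receptor PD-1 on T cells, and CD276 (B7-H3) is a related B7 family protein. CD47 binds SIRPα on macrophages and restrains phagocytosis. PVR and NECTIN2 are ligands of the activating receptor CD226 and the inhibitory receptor TIGIT on T cells and natural killer cells. ICAM1 is the adhesion ligand of the integrin LFA-1, which holds the contact between a lymphocyte and its target.

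All 4 lists came from single libraries of unknown depth. H69M had 1.34 times as many H3K27ac peaks as H69, over 1.59 times the length, and 1.75 times as many H3K27me3 peaks over 1.62 times the length. The part of this difference between the lists in the results below was not tested, beyond a repeat with equal numbers of peaks. The score attached to each peak is the authors'. It runs from 50 upward, piles up at 3100 in the H3K27ac lists and is used only within a list. Markers of the lines themselves were not checked, since hg19 spans of other genes were not used here.

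In H69M every one of the 7 start sites lay under an H3K27ac peak, whereas in H69 the start sites of CD276, CD47, PVR and NECTIN2 did and those of CD274, PDCD1LG2 and ICAM1 did not. No share over all start sites stands beside these counts, since hg19 start sites of other genes were not used here. Of 40 kb tiles of the genome with H3K27ac in either line, 27.5% had it in H69M and not in H69. H3K27me3 peaks were listed in the windows of 2 of the 7 genes, and in 12396 of 75853 tiles of 40 kb along the genome. They were narrow, with a median width of 156 bp over the H69M list and 185 bp over the H69 list. An unlisted peak does not show that the mark is absent. Within 1000 bp of a start site H3K27me3 was listed at CD276 in H69M and at ICAM1 in H69.

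**Figure D1:**
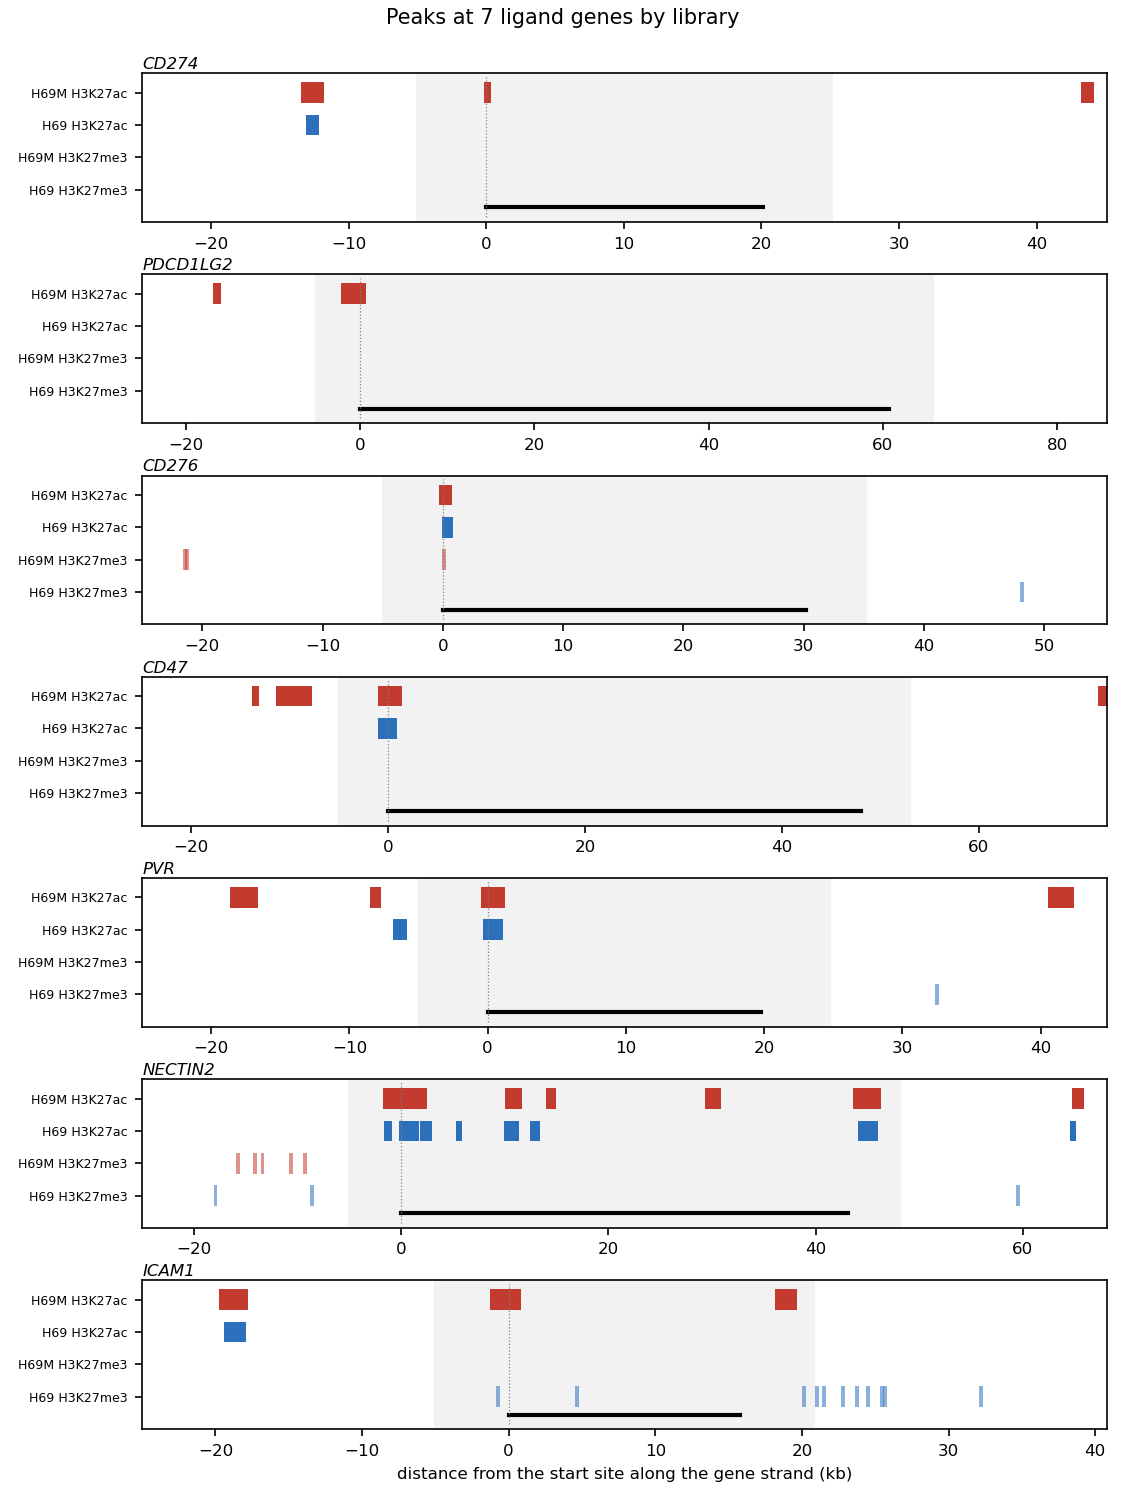
Peaks by library around the 7 genes, drawn along the gene strand in kb from the start site (dotted line). H69M rows stand above H69 rows for each mark, the black bar is the gene span, grey is the window with 5 kb added, and very narrow peaks are widened to be visible. CD274, PDCD1LG2 and ICAM1 have H3K27ac at the start site in the H69M row and none in the H69 row.

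CD274 carried a small H3K27ac peak in H69M, at chr9:5450327-5450862, 536 bp wide with a score of 126. The peak reached from 176 bp before the start site to 359 bp after it. H69 had no H3K27ac peak in the CD274 window, and its nearest lay 12.2 kb upstream of the start site. That upstream peak was present in H69M (1618 bp, score 1404) as well as in H69 (923 bp, score 506), and the next coding gene on that side is PLGRKT in RefSeq. The start site peak was weak for its list, where 34.7% of H69M peaks had a lower score and 6.53% were narrower.

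The PDCD1LG2 peak was much larger. In H69M it spanned chr9:5508331-5511290, 2960 bp with a score of 1929, from 2214 bp before the start site to 745 bp after it. H69 had no H3K27ac peak in the PDCD1LG2 window, and its nearest lay 72.2 kb away, on the far side of CD274. Of the H69M peaks, 82.4% had a lower score and 91.8% were narrower. The CD274 and PDCD1LG2 start sites are 60.0 kb apart. Across the 131 kb that hold both windows H69M had 3 H3K27ac peaks over 4417 bp, and none was listed in H69. The third of these lay between the windows at chr9:5493722-5494642 with a score of 220.

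No H3K27me3 peak was listed in that stretch in either line. The nearest H3K27me3 peak to the CD274 start site was 220 kb away in H69M and 612 kb away in H69. RefSeq places the long noncoding RNA gene INCR1 over both genes. It also places LIMASI and ICAM4-AS1, both noncoding, over ICAM1, and CEACAM19 and MIR4531 over PVR. Peaks at these genes cannot be assigned to one of the overlapping genes by position alone.

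ICAM1 was the gene where the marks differed in opposite directions. In H69M an H3K27ac peak at chr19:10380211-10382371, 2161 bp with a score of 291, ran from 1306 bp before the start site to 854 bp after it. A second, weaker one at chr19:10399679-10401157 (1479 bp, score 112) lay beyond the 3' end and was not assigned to a gene. The next coding gene on that side is ICAM4, which codes for another adhesion protein of the family. H69 had no H3K27ac peak in the window. There H3K27me3 was listed instead, in 3 narrow peaks at 636 to 830 bp before the start site (195 bp, score 66.2), 4565 bp after it (154 bp, score 58.7) and 20075 bp after it (169 bp, score 61.4). The last of these lay beyond the 3' end. In H69M the nearest H3K27me3 peak lay 40.6 kb from the ICAM1 start site.

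All 3 of these H3K27me3 scores were near the lowest listed score of 50, and 86.2% of the H69 H3K27me3 peaks scored under 100. With 25 kb added on each side of the gene, H69 had 11 H3K27me3 peaks with scores of 51.7 to 97.1, and H69M had none. Over the whole H69 list 67.4% of H3K27me3 peaks had no overlapping H69M peak, and neighbouring peaks are not independent. Of the 11, 1 lay upstream of the start site, 1 in the gene body and the other 9 beyond the 3' end, 20.1 to 32.3 kb past the start. ICAM4 is the next coding gene on that side. Genes beyond ICAM4 were not looked up, so these 9 peaks were not assigned to a gene. In the same wider stretch an H3K27ac peak about 18 kb upstream was present in H69M (1996 bp, score 1952) and in H69 (1509 bp, score 1423). Among 40 kb tiles of the genome with a peak of either mark, 1.14% had H3K27ac in H69M and not in H69 together with H3K27me3 in H69 and not in H69M. Among the 5513 tiles with H3K27me3 and no H3K27ac in H69 the percent was 7.20. The tile that holds the ICAM1 start site does not itself meet the pattern, since the H69 H3K27ac peak about 18 kb upstream lies in it. The ICAM1 window is shorter and leaves that peak out, so these shares are not those of like windows. This joint pattern was chosen for counting after the ICAM1 values had been seen.

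The promoters of CD274 and ICAM1, whose start sites had a listed H3K27ac peak in H69M and not in H69, are printed below. Beside them is that of CD47, with such a peak in both lines. Each is the RefSeq sequence from 250 bases before to 50 after the start, on GRCh38.p14 and on the gene's strand, and its coordinates cannot be set against the hg19 peaks. Capitals mark matches on either strand to the interferon response motif (GAAA, any 2 bases, GAAA), TTCNNNGAA (STAT), GGAANNTCC (NF-kB), TGANTCA (AP-1) or GGGCGG (SP1), and overlapping matches run together.
CD274, chr9:5450292-5450591, plus strand: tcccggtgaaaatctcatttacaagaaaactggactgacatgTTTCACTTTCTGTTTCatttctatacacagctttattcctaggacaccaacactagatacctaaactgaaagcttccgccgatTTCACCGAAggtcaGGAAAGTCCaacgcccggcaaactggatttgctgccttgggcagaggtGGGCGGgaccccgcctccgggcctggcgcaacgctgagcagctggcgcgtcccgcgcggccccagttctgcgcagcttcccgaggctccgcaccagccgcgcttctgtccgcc
ICAM1, chr19:10270870-10271169, plus strand: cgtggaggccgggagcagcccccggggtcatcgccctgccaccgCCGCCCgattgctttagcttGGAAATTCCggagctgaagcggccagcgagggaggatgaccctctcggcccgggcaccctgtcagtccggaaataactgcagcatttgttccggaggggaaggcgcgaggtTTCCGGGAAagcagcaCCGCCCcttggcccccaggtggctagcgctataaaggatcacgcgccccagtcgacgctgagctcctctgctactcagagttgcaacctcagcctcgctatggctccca
CD47, chr3:108090982-108091281, minus strand: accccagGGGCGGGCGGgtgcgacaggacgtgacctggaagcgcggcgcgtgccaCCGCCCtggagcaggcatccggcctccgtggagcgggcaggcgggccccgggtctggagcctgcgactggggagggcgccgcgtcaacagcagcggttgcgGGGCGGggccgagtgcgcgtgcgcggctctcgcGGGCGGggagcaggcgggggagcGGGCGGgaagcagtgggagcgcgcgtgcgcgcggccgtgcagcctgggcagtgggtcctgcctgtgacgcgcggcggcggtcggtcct

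CD274 held 2 overlapping interferon response matches, at -208 to -199 and at -202 to -193 from its start, a motif found in 3.57% of the 35116 promoters of the table. It also held a STAT match at -125 to -117 (7.66% of promoters) and an NF-kB match at -111 to -103 (4.56%). An SP1 match (45.0%) lay at -63 to -58. ICAM1 held an NF-kB match at -186 to -178, a STAT match at -75 to -67 and SP1 matches at -206 to -201 and -59 to -54. CD47 held 6 SP1 matches and none of the other 4 motifs. The promoters of CD276, with 2 entries, and NECTIN2 held SP1 matches and none of the other motifs, and the PVR promoter held none of the 5. A match describes the letters of the window and not a bound site. PDCD1LG2 is named without a sequence.

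CD47 had a high-scoring start site peak in both lines. It was 2355 bp wide at chr3:107808578-107810932 in H69M and 1909 bp wide at chr3:107809032-107810940 in H69, with a score of 3100 in each list. Many H3K27ac peaks tie at that value and some score above it, so the score does not rank CD47 among the tied peaks. The edge upstream of the gene differed by 8 bp between the lines, while the edge inside the gene reached 1357 bp past the start site in H69M and 903 bp in H69.

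Just outside the CD47 window H69M had a wide H3K27ac peak at chr3:107817647-107821330, 3684 bp with a score of 1660, between 7712 and 11395 bp upstream of the start site. No H69 peak overlapped it. With 25 kb added on each side, CD47 passed the 2-fold rule given below (log2 ratio 1.76). The nearest H3K27me3 peak to the CD47 start site was 582 kb away in H69M and 4390 kb away in H69.

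PVR carried 1 H3K27ac peak in each line, at the start site. It was 1710 bp wide with a score of 2696 in H69M, at chr19:45146647-45148356, and 1392 bp wide with a score of 1930 in H69, at chr19:45146790-45148181. The H69M peak extended farther by 143 bp upstream and by 175 bp downstream. No H3K27me3 was listed in the PVR window in either line.

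NECTIN2 had the longest H3K27ac cover, 11007 bp in 5 peaks in H69M and 8652 bp in 7 peaks in H69. At its start site H69M had 1 peak of 4258 bp at chr19:45347609-45351866 with a score of 3129. H69 had 3 separate peaks that overlapped it, with scores of 126, 897 and 163 and widths of 758, 1975 and 1153 bp. Of the 26352 H69M peaks that overlapped an H69 peak, 2.21% overlapped 3 or more. In the gene body a peak about 10 kb past the start site was present in H69M (1625 bp, score 207) and in H69 (1366 bp, score 309). Elsewhere in the gene body 2 H69M peaks, with scores of 119 and 165, and 2 H69 peaks, with scores of 54.3 and 68.4, had no counterpart.

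The strong peak at the downstream edge of the NECTIN2 window, 2667 bp in H69M and 1894 bp in H69 with a score of 3100 in each, lay beyond the gene's 3' end, where TOMM40 is the next coding gene. Without any flank, which removes it, NECTIN2 kept its side of the 2-fold rule.

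CD276 had a start site peak of low score in both lines. It was 1079 bp wide with a score of 156 in H69M, at chr15:73976342-73977420, and 941 bp wide with a score of 115 in H69, at chr15:73976567-73977507. A lower score was listed for 40.5% of the peaks in the H69M list and 34.8% in the H69 list, and 46.9% and 48.6% of the peaks were narrower. In H69M a 120 bp H3K27me3 peak with a score of 54.1 lay inside the acetylated peak, from 7 to 126 bp past the start site. In H69 the nearest H3K27me3 peak lay 48.1 kb away. Of the H69M H3K27ac peaks, 1.56% overlapped an H3K27me3 peak of that line. The 120 bp peak was absent when the H69M list was cut to the length of the H69 list.

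**Figure D2:**
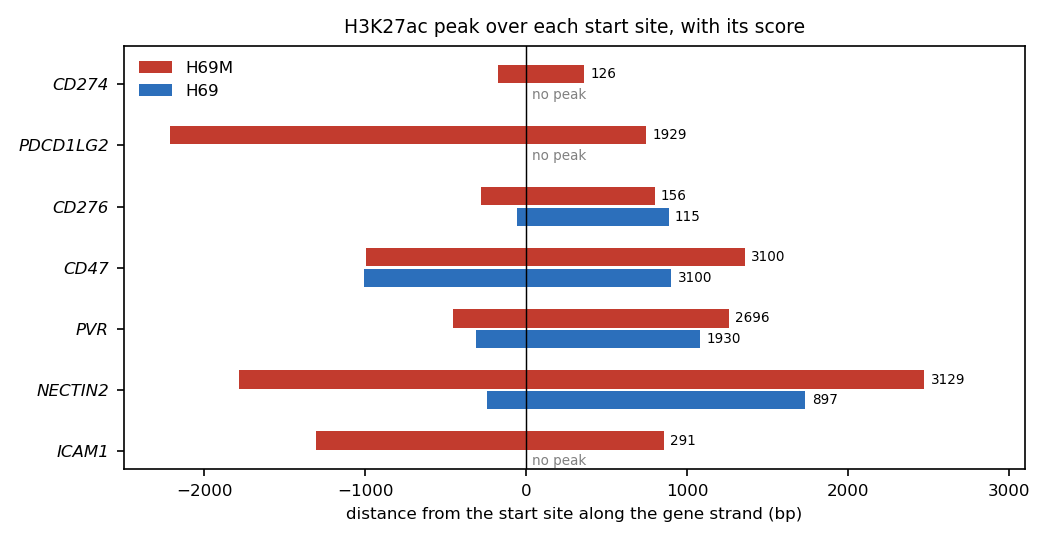
The H3K27ac peak over each start site, with H69M above H69, in bp along the gene strand from the start site, and the authors' score at its right end. The 3 genes with no H69 peak have H69M peaks of 536, 2960 and 2161 bp. The NECTIN2 peak of H69M is 2.16 times as wide as the H69 peak drawn, which is the widest of 3 H69 peaks that it overlaps.

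Among the 4 start site peaks present in both lines, the H69M peak was wider by a ratio of 1.15 at CD276, 1.23 at CD47, 1.23 at PVR and 2.16 at NECTIN2. Over all 21822 H3K27ac peaks that paired one to one between the lines the median ratio was 1.2 (quartiles 1.02 and 1.51). The ratios of CD276, CD47 and PVR fell between those quartiles. The NECTIN2 peak is not such a pair, since it lies over 3 peaks of H69.

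**Figure D3:**
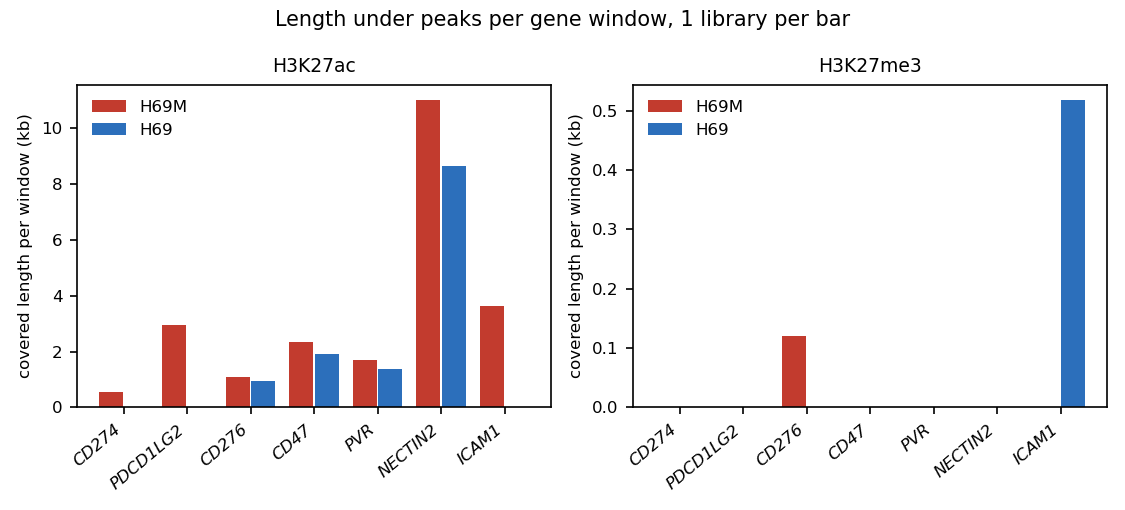
Length under peaks in each gene window in kb, H3K27ac on the left and H3K27me3 on the right (on a different axis), with the H69M bar left of the H69 bar and 1 library per bar. H3K27ac covered every window over a greater length in H69M, and H3K27me3 appears at CD276 in H69M and at ICAM1 in H69.

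H3K27ac covered a greater length in H69M than in H69 at 7 of 7 genes, and 78.2% of all 40 kb tiles with an H3K27ac peak were also covered over a greater length in H69M. At CD276 the direction turned without any flank (log2 ratio -0.09). The median cover per gene was 2355 bp in H69M and 941 bp in H69. A gene was called when its covered length, with 500 bp added on each side of the ratio, differed at least 2-fold. By this rule 3 of 7 genes were higher in H69M, CD274, PDCD1LG2 and ICAM1, and 0 were lower. The same rule called 35.8% of the 27103 tiles higher and 8.32% lower in H69M. For the 4 genes with peaks in both lines the log2 ratio lay between 0.13 and 0.33. The median over all 7 was 0.33, against 0.49 over the tiles. The share of genes called was thus near that of tiles, and nothing particular to the 7 genes as a group is read from it.

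The CD274 call rested on its 536 bp and ended without any flank (log2 ratio 0.78) and with 2000 bp added (0.34). For CD274, PDCD1LG2 and ICAM1 the H69 length is listed at 0, so no fold is given. In 27.5% of tiles with H3K27ac the peaks were likewise in H69M and not in H69. No gene had H3K27ac in H69 and not in H69M, which held for 8.44% of tiles. With equal numbers of peaks, where the lowest H69M score kept was 92.3, the same 3 genes were called.

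For H3K27me3 the rule called ICAM1 lower in H69M and 0 genes higher. Among the 12396 tiles with an H3K27me3 peak it called 2.86% lower and 10.8% higher. The ICAM1 call (log2 ratio -1.03) ended without any flank (-0.39) and with 2000 bp added (-0.33). Of the 518 bp behind it in H69, 169 bp lay beyond the 3' end, in a peak not assigned to a gene. The call without that peak alone was not computed. With peaks under a score of 100 left out, no H3K27me3 peak remained in the window in either line. CD276 did not pass the rule (0.31), and the other 5 genes had no H3K27me3 peak in either line.

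Counted by peak, 6 of the 12 H3K27ac peaks of H69M had no overlapping peak in H69, against 48.4% of that whole list. In the other direction 2 of the 10 H69 peaks had none in H69M, against 22.5% of the list, and both lay in the NECTIN2 gene body. The single H3K27me3 peak of H69M and the 3 of H69 had no counterpart, which was also the case for 81.1% of H3K27me3 peaks in H69M and 67.4% in H69.

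**Figure D4:**
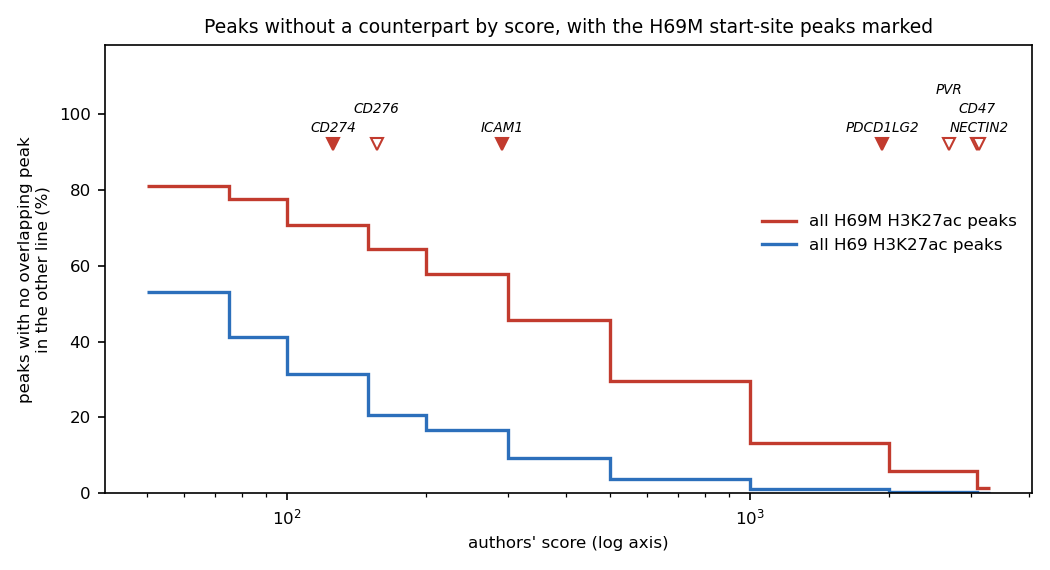
Share of H3K27ac peaks with no overlapping peak in the other line, in percent, by the authors' score on a log axis, for all peaks of H69M and H69. Triangles mark the scores of the 7 start site peaks of H69M at an arbitrary height, filled where H69 had no overlapping peak: CD274 and ICAM1 lie where such peaks are common and PDCD1LG2 where they are rare.

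How usual a missing counterpart was depended on the score. Among the 6508 H69M peaks with a score within 1.25-fold of the CD274 peak, 70.1% had no overlapping H69 peak, and for ICAM1 the percent was 53.9 of 4442. Near the score of the PDCD1LG2 peak it was 8.32% of 2958. Near that of the peak upstream of CD47 it was 9.73% of 2990. These score bands were chosen after the values had been seen. They describe the H69M list and give no test of the difference between the lines.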

How the data were processed

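ChIP-seq for H3K27ac (Abcam ab4729) and H3K27me3 (Cell Signaling C36B1) was read from paired ends of 38 nucleotides, per the labels' protocols. Bowtie2, SAMtools 0.1.19 and the build hg19 are named in the submitters' processing notes. The deposited peak lists give position, a name with the word MACS and the authors' score, whose definition, like the caller's version, settings and use of the input, is not given in the sources used here. Lists were made per library. They hold no read counts, so depth is unknown and no interval is given.

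Gene spans were those of the rule, on hg19. Peaks were taken by 1 bp of overlap, clipped to the window and merged. Start sites are the 5' ends of the spans. Tiles of 40 kb stood in for all genes, since the gene table lies on GRCh38.p14 and served for names and promoters (6 of 7 genes matched). Gene windows are centred on genes and tiles are not. No test was run, with 1 library per group. All 7 genes were described, and members and lists were chosen with earlier results of these data known. Interval functions were checked on the H69M H3K27ac list, at random windows and with peaks removed from a copy of it. Alternatives were other flanks, added lengths, score limits, equal peak numbers and overlap rules. Python 3.11.15, pandas 2.3.3 and numpy 2.4.6 were used.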

Additional observations from a re-analysis of the deposited data

How the results depend on the processing

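Among the 7 genes the number higher for H3K27ac in H69M was 3. It was 2 without flank and 2 with 2000 bp added, where CD274 was no longer called. It became 5 with 25000 bp of flank (CD47 and PVR added) and was 0 with no flank and 2000 bp added, a combination chosen after seeing the data. The number lower for H3K27me3 was 1, and 0 without flank, with a score of 100 or more, with 2000 bp added and with both changes, while the number higher was 1 with 100 bp added (CD276). H3K27ac peaks of H69 without a counterpart numbered 1 when 1000 bp apart counted as shared and 0 with a score of 100 or more, which also left 0 H3K27me3 peaks in H69M and 0 in H69. Equal numbers of peaks left 0 of these H3K27me3 peaks in H69M. With a peak required over the start site itself, 0 genes had H3K27me3 in H69M and 0 in H69. With tiles that had peaks in both lines, 16.4% were longer in H69M for H3K27ac and 1.8% in H69, and with a 1.5-fold rule 25.2% were longer in H69M for H3K27me3 and 10.1% in H69. The cause was not tested. Of the counts and percentages as recomputed, 42 were recorded as the same and 18 as moved. Smaller shifts were also recorded as the same, such as 3 to 2 genes higher for H3K27ac. Another was 35.8% to 46.7% of H3K27ac tiles longer in H69M with the 1.5-fold rule. No called gene changed direction. No paired analysis was possible because each group holds 1 sample. Depth is unknown, so a missing peak may lie under the caller's threshold.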

Other observations

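Farther from PVR, with 25 kb added on each side, H69M had H3K27ac peaks with no counterpart in H69 at 16644 to 18675 bp upstream of the start site (2032 bp, score 390), at 7726 to 8479 bp upstream (754 bp, score 77.0) and at 40573 to 42442 bp downstream (1870 bp, score 392). H69 had 1 without a counterpart in H69M, at 5818 to 6815 bp upstream (998 bp, score 111). Among H69M peaks with scores near these, 45.4% had no overlapping H69 peak around a score of 390 and 78.9% around 77.0, and among H69 peaks around 111 the share without an H69M peak was 34.1%. Next to NECTIN2, both lines had weak H3K27me3 peaks upstream of the window, 5 in H69M with scores of 53.8 to 81.5 and 2 in H69 with scores of 57.9 and 59.4, and none of them overlapped a peak of the other line. That was the usual case, since 81.1% of all H3K27me3 peaks in H69M and 67.4% in H69 had no counterpart.

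The promoters printed by RefSeq for these genes differed in CpG content. CD47 had 45 CpG dinucleotides in 300 bases, more than 96.5% of promoters in the table, and CD274 had 22 and ICAM1 24, against a median of 14 over the table. The 2 entries of CD276 had 37 and 28, the first more than 88.7% of promoters. PVR had 27 and NECTIN2 26.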
